A study of Mus musculus with 20 samples.

Results

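Wnt signaling was read here through 50 of its components, chosen by name as ligands, receptors and co-receptors, ubiquitin ligases with the Lgr receptors and R-spondins, secreted antagonists, and the beta-catenin core with its nuclear factors and feedback targets. All 50 were found among the 45706 genes counted in each sample. RNA sequencing covered breast tumors and tumor cells of the PyMT mouse, in which the polyoma middle T oncogene is driven in the mammary epithelium by the MMTV promoter. The tumors came from 18-week-old mice, 4 controls and 4 MMTV-cre;Ctsd-/- animals, in which cre under the same promoter removes the gene of the lysosomal aspartic protease cathepsin D from the mammary epithelium, so that stroma keeps it. The labels call the controls wild type, while the study's methods pool under that name cathepsin D-competent mice with untargeted or floxed alleles. The cells were spontaneously immortalized primary breast tumor cells of 1 Ctsd+/+ and 1 MMTV-cre;Ctsd-/- PyMT mouse. Cells of either genotype were starved mildly in medium holding 1% fetal calf serum, for 10 days (1% FCS) or for 12 weeks (1% FCS LT), and 3 replicates were sequenced per group. A difference between the genotypes in cells is therefore a difference between the lines of 2 mice, and its p-values measure the spread between libraries of those lines.

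Wnt proteins are lipid-modified ligands that bind Frizzled receptors together with the co-receptors Lrp5 and Lrp6. In the canonical branch this binding stops the destruction complex of Axin and Apc from marking beta-catenin for degradation, and beta-catenin then acts with Tcf and Lef factors on target genes such as Axin2. Noncanonical ligands such as Wnt5a and Wnt11 also signal through Ror1, Ror2 and Ryk. Wnt genes are classical mammary oncogenes of the mouse, since insertions of the mammary tumor virus activate them.

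Total counts ran from 49725437 to 64291587 in tumors and from 33622831 to 40239762 in cells. Values below are CPM, read counts over the library total set to a common size and scaled by the trimmed mean of M values, a log2 fold change is given with its standard error (SE), and the floor is 3 counts in a library. Members tested were 47 of 50 in tumors and 40 of 50 in cells, the others being too low. Ctsd itself was at 1780 to 2620 CPM in control tumors and 360 to 1290 CPM in Ctsd-/- tumors, and at 1270 to 4200 CPM in Ctsd+/+ cells against 114 to 192 CPM in Ctsd-/- cells.

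The 3 libraries of Ctsd+/+ cells in 1% FCS stood apart in cell type markers. The sum of 9 fibroblast markers was 1180 to 3310 CPM there, against 5.04 to 11.9 CPM in Ctsd-/- cells in 1% FCS, 3.05 to 8.44 CPM in Ctsd+/+ cells in 1% FCS LT and 9.55 to 99.8 CPM in Ctsd-/- cells in 1% FCS LT. Pdgfrb, Col1a1 and Col3a1 made up most of this sum, whereas Lum and Thy1 were at 0 in all 3 libraries and Fap was at the floor. The sum of 10 luminal epithelial markers was 1070 to 2230 CPM in these libraries and 6250 to 13100 CPM in the other 9, with no marker of that list at the floor in any group. Every comparison with Ctsd+/+ cells in 1% FCS rests on these 3 libraries, and the part of this shift in the Wnt values was not tested. In such bulk samples fewer cells of a type and less RNA per cell cannot be told apart.

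Promoter sequences are shown for members whose level differed in the cells, to set those holding the core letters bound by Tcf and Lef factors beside an Axin2 promoter and the promoter of Dkk2, the member with the greatest difference. RefSeq (GRCm38.p6) gave promoters for 32 of the 50 members. The 250 bases before the transcript start were searched on both strands for CTTTGAT and CTTTGTT, which cannot overlap on the same strand. A match was found in 2648 of all 32851 promoters, or 8.06%, and in 4 of 43 promoters of members, or 9.3%, those of Fzd7, Tcf7l2, Wnt11 and Wnt5b. Windows lie at chr1:59481897-59482146 for Fzd7 (plus strand), chr6:119449387-119449636 for Wnt5b (minus strand, 1 of its 3 promoters), chr7:98834862-98835111 for Wnt11 (plus strand, 1 of its 2), chr11:108920099-108920348 for Axin2 (plus strand) and chr3:132085042-132085291 for Dkk2 (plus strand). Each is written 5′ to 3′ along its gene, with the matching letters or their reverse complement in capitals.
Fzd7: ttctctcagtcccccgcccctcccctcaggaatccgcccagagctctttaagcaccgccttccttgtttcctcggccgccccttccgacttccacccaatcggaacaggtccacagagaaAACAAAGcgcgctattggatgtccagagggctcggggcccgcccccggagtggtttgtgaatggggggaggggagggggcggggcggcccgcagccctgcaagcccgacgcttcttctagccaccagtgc
Wnt5b: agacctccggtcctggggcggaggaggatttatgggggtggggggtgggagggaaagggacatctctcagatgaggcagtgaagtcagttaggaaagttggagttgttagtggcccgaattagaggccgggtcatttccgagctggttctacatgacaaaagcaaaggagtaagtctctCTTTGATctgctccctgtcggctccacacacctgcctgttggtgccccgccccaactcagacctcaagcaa
Wnt11: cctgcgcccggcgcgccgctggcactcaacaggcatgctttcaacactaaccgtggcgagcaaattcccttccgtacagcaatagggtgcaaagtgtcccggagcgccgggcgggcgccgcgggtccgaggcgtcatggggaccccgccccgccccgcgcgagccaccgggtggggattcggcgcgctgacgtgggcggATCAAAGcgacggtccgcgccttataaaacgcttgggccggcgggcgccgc
Axin2: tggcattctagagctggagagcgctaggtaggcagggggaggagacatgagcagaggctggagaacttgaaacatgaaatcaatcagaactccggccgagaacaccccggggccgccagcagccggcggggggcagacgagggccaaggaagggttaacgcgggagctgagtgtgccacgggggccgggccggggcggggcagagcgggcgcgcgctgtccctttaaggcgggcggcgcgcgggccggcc
Dkk2: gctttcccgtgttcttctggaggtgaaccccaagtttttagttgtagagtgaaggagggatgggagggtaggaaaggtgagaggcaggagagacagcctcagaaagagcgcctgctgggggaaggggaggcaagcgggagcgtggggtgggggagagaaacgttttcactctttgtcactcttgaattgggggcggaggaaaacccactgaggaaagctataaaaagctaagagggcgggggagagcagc
The Fzd7 match begins 130 bases before the transcript start, that of Wnt5b 71 bases and that of Wnt11 51 bases. No match was present in the Axin2 and Dkk2 windows, which says only that these letters are not in these bases.

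**Figure D1:**
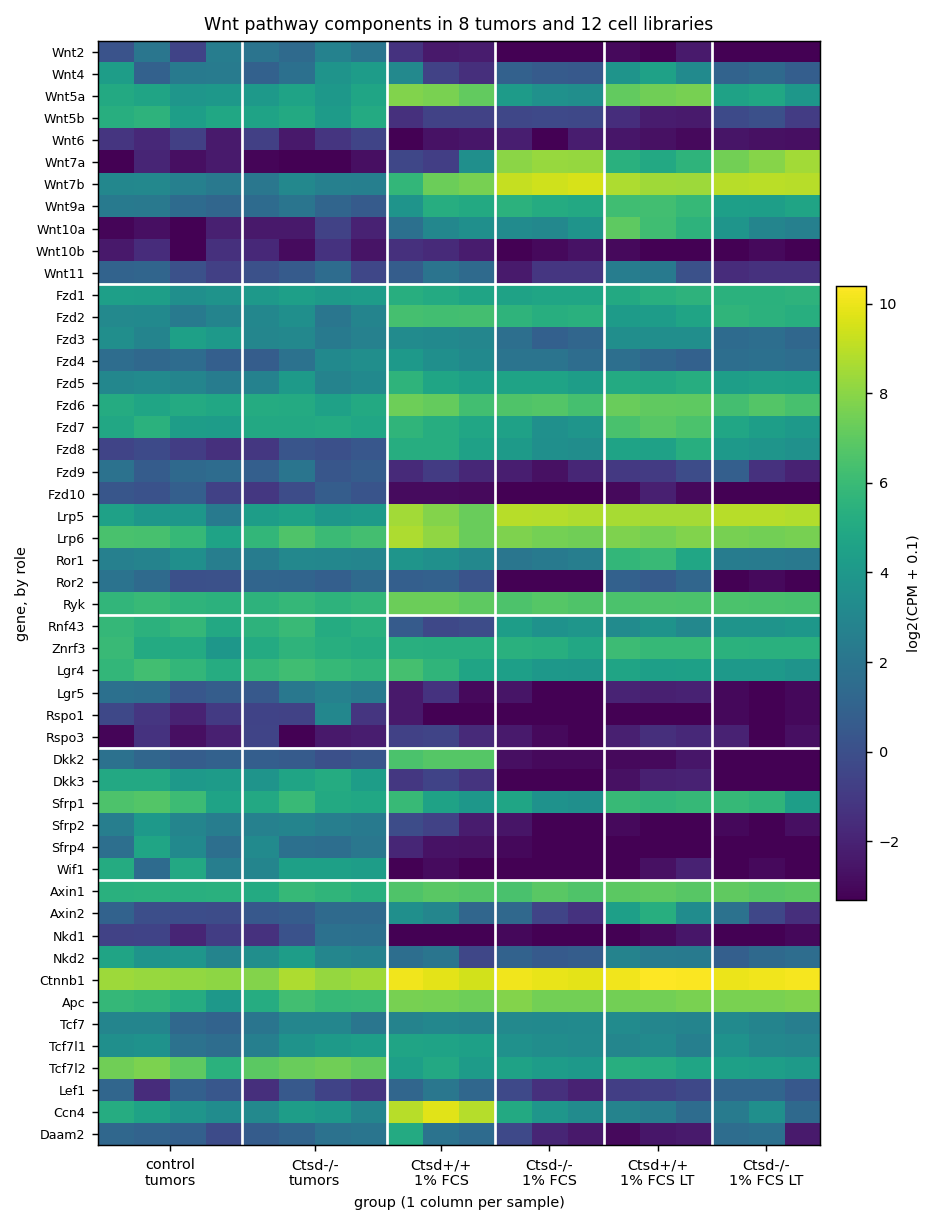
Level of the 50 members (rows, grouped by role) in 8 tumors and 12 cell libraries (1 column each), as log2(CPM + 0.1). Among the cells, Dkk2 and Ccn4 are highest in Ctsd+/+ cells in 1% FCS and Wnt7a is highest in Ctsd-/- cells, while Sfrp2, Sfrp4 and Wif1 are low in cells and higher in tumors.

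Whether loss of cathepsin D goes with a different Wnt profile in starved tumor cells was asked first at 10 days. In 1% FCS, 17 of the 40 members tested were lower in Ctsd-/- than in Ctsd+/+ cells and 3 were higher, by an edgeR adjusted p below 0.05 with a log2 fold change beyond 1. Over all 15178 genes tested, 14.6% were called lower and 10.3% higher. The median log2 fold change of the members was -0.92, beside 0 over all genes. In 1% FCS LT, 13 members were lower and 5 higher, where 10.1% and 9.24% of all genes were called, and the median of the members was -0.46 beside 0.01. Dkk2, Dkk3, Ror2 and Rspo3 were among the 17, with at most 6 counts in any Ctsd-/- library. They passed the filter on low counts only through Ctsd+/+ libraries, so at 10 days they could be called only lower. Dkk2, Dkk3 and Ror2 were also among the 13. The sum of 7 basal markers was 19.3 to 77 CPM in Ctsd+/+ and 4.23 to 5.77 CPM in Ctsd-/- cells at 12 weeks, and that of 7 macrophage markers 54.9 to 63.6 and 8.81 to 25.1 CPM. In Ctsd+/+ cells most of these sums came from Krt14 (17.6 to 75.9 CPM) and Csf1r (53 to 58.2 CPM). Cd68 went the other way, at 1.76 to 5.27 CPM in Ctsd+/+ and 5.91 to 18.6 CPM in Ctsd-/- cells. Of 5 basal markers tested 1 was called lower in Ctsd-/- cells, and of 2 macrophage markers 1 was called lower and 1 higher. At the floor in all libraries of a group were 2 basal markers in either genotype, and 4 macrophage markers in Ctsd+/+ and 3 in Ctsd-/- cells. The part of these shifts in the Wnt values was not tested. At both times 13 members were called, 11 of them in the same direction, and Lef1 and Daam2 in opposite directions. Without Dkk2, whose groups are both at the floor at 12 weeks, these counts were 12 and 10, and 12 members were lower at 12 weeks. The share of all genes called at both times, or in the same direction at both, was not computed. Both comparisons are between the same lines, so these counts are not set apart from genes in general. In the 8 cell libraries that share an LR code in their label, whose meaning the labels do not state, 15 were lower and 5 higher at 10 days, and 10 lower and 5 higher in 1% FCS LT. The share of all genes called in these 8 libraries was not computed. Replicate 1 of both genotypes in 1% FCS carries another code, and replicate 3 of both in 1% FCS LT a different one again. Code and culture time thus cannot be fully told apart.

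**Figure D2:**
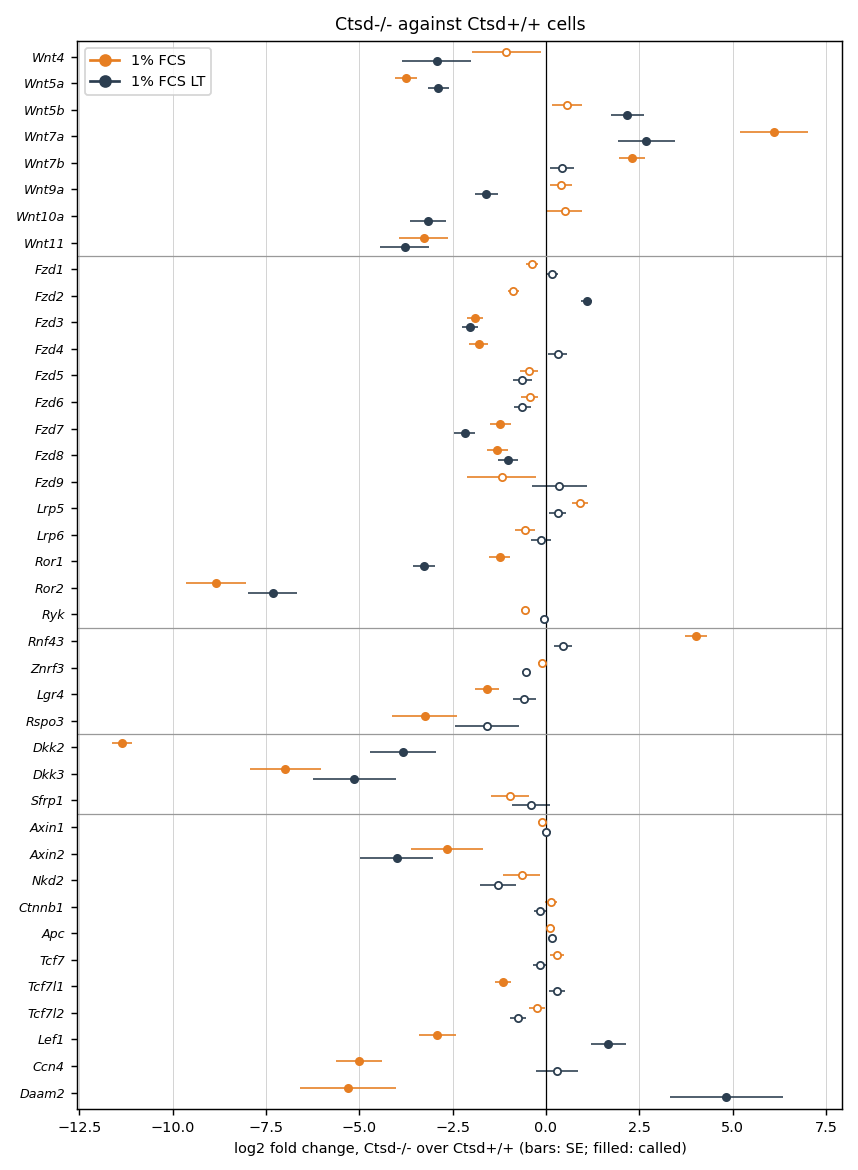
Log2 fold change of Ctsd-/- over Ctsd+/+ cells (x axis, bars are SE) for the 40 members tested (y axis, by role), in 1% FCS and in 1% FCS LT, with filled points for members called. Points of Wnt5a, Wnt11, Fzd3, Ror1 and Ror2 lie left of 0 at both times, and Lef1 and Daam2 change sides. The points of Dkk2, Dkk3 and Ror2 are fitted against a group at the floor, so their distance from 0 is not a measured size.

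Of 8 ligands tested, Ctsd-/- cells had 2 called higher and 2 called lower at 10 days (all genes 10.3% and 14.6%), and 2 and 5 at 12 weeks (9.24% and 10.1%). Wnt7a, a ligand known from limb and reproductive tract patterning, was at 0.66, 0.489 and 11.2 CPM in Ctsd+/+ cells in 1% FCS and at 256, 316 and 295 CPM in Ctsd-/- cells. After 12 weeks it was at 41, 31.1 and 48.7 CPM in Ctsd+/+ cells and at 177, 239 and 361 CPM in Ctsd-/- cells. The groups did not overlap at either time. The difference was 68.8-fold in 1% FCS (log2 fold change 6.1, SE 0.91, edgeR adjusted p = 0.000198) and 6.43-fold in 1% FCS LT (2.69, SE 0.765, adjusted p = 0.0153). Without Ctsd+/+ replicate 3 in 1% FCS, the library at 11.2 CPM, the first log2 fold change was 8.95. The 12-week call was lost without replicate 2 of the Ctsd+/+ cells in 1% FCS LT (2.53, adjusted p = 0.0619). Wnt7b, its close relative, was at 55.1, 160 and 194 CPM in Ctsd+/+ and 576, 691 and 746 CPM in Ctsd-/- cells in 1% FCS, a 4.92-fold difference (adjusted p = 0.000201). After 12 weeks the Wnt7b ranges were 331 to 418 CPM and 477 to 510 CPM, and the difference of 0.43 (SE 0.328) was not called.

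Wnt5a, the prototype noncanonical ligand, was at 224, 201 and 135 CPM in Ctsd+/+ cells in 1% FCS and at 18.3, 12.3 and 10.9 CPM in Ctsd-/- cells. It was at 137, 171 and 195 CPM against 24, 28.4 and 15.5 CPM in 1% FCS LT. Every Ctsd+/+ library was above every Ctsd-/- library, and the difference was 13.5-fold at 10 days (edgeR adjusted p = 1.6e-06) and 7.4-fold at 12 weeks (adjusted p = 1.19e-05). Wnt11, a second noncanonical ligand, was much lower in level but went the same way. Its values were 1.53, 3.73 and 2.54 CPM in Ctsd+/+ and 0.0973, 0.356 and 0.355 CPM in Ctsd-/- cells in 1% FCS, then 5.59, 4.82 and 0.963 CPM against 0.239, 0.283 and 0.29 CPM. Wnt11 was 9.68-fold lower in Ctsd-/- cells at 10 days (adjusted p = 0.00163) and 13.8-fold lower at 12 weeks (adjusted p = 0.000802).

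Wnt10a, which acts in the canonical branch, differed between the genotypes only after 12 weeks, and that difference between times was itself called (interaction log2 fold change -3.65, SE 0.667, edgeR adjusted p = 0.0017). It was at 3.3, 7.94 and 11.2 CPM in Ctsd+/+ and 9.86, 8.41 and 13.5 CPM in Ctsd-/- cells in 1% FCS, ranges that overlap. After 12 weeks it was at 127, 71.9 and 46.6 CPM in Ctsd+/+ and 14, 7.44 and 6.1 CPM in Ctsd-/- cells, 8.92-fold lower (adjusted p = 0.00036). Wnt9a showed a like order at 12 weeks, 57.4 to 76.9 CPM in Ctsd+/+ and 20.9 to 25.5 CPM in Ctsd-/- cells (3.03-fold, adjusted p = 0.00138). Wnt4, a progesterone-responsive mammary ligand, was 7.61-fold lower in Ctsd-/- cells in 1% FCS LT (9.3 to 23.1 against 1.6 to 2.47 CPM, adjusted p = 0.0259), a call lost without Ctsd+/+ replicate 2 or any 1 of the 3 Ctsd-/- replicates (-3.09 to -2.51, adjusted p = 0.0643 to 0.0826). Wnt5b stayed below 1 CPM in all cells and was 4.54-fold higher in Ctsd-/- cells at 12 weeks (adjusted p = 0.00232). Wnt2, Wnt6 and Wnt10b were too low to be tested in cells, at most 0.3 CPM in any library.

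Of 14 receptors and co-receptors tested, 6 were lower and 0 higher in Ctsd-/- cells at 10 days, and 5 were lower and 1 higher at 12 weeks, beside 14.6% and 10.3% of all genes at 10 days and 10.1% and 9.24% at 12 weeks. Ror2, counted as lower at both times, passed the filter on low counts only through Ctsd+/+ libraries. The Ror pair of noncanonical co-receptors was lower at both times. Ror1 was at 14.2, 11.7 and 8.43 CPM in Ctsd+/+ and 4.11, 4.68 and 5.76 CPM in Ctsd-/- cells in 1% FCS, and at 54.5, 62.7 and 28 CPM against 5.27, 5.12 and 4.57 CPM in 1% FCS LT. No Ctsd-/- library reached the lowest Ctsd+/+ library. The difference was 2.35-fold at 10 days (edgeR adjusted p = 0.00343) and 9.7-fold at 12 weeks (adjusted p = 7.35e-06). In the samples of a single LR code the Ror1 difference at 10 days was short of the size for a call (-0.94, adjusted p = 0.00551). Ror2 was at 1.68, 1.83 and 1.02 CPM in Ctsd+/+ cells in 1% FCS and 1.84, 1.44 and 2.23 CPM in 1% FCS LT. In Ctsd-/- cells 5 of the 6 libraries held no Ror2 count and the sixth was at 0.0257 CPM. Against the floor of 3 counts in each library, Ror2 was at least 17-fold lower at 10 days and at least 23.8-fold lower at 12 weeks.

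Frizzled receptors divided into those lower at both times, those that differed at 1 time, and those that were not called. Fzd7, a receptor of mammary progenitor and basal cells, was at 50.2, 36.9 and 27.6 CPM in Ctsd+/+ and 23.1, 11.6 and 14.1 CPM in Ctsd-/- cells in 1% FCS. At 12 weeks the values were 87.6, 116 and 90.5 CPM against 27.5, 20.4 and 17.1 CPM. The ranges were apart at both times, by 2.35-fold (edgeR adjusted p = 0.00369) and 4.52-fold (adjusted p = 0.00012), although the size at 10 days was short of a call without replicate 1 of the Ctsd+/+ cells (-0.98, adjusted p = 0.0153). Fzd3 was likewise lower in Ctsd-/- cells at both times, 3.72-fold (adjusted p = 2.38e-05) and 4.11-fold (adjusted p = 2.07e-05), and Fzd8 2.47-fold (adjusted p = 0.00196) and 2.05-fold (adjusted p = 0.0095). The later Fzd8 call was lost without replicate 3 of either genotype (-0.75 and -0.92), in the samples of a single LR code (-0.65) and with the LR code as covariate (-1). Fzd4, the receptor of the Norrin ligand as well as of Wnts, was at 16.3, 11.4 and 8.98 CPM in Ctsd+/+ cells in 1% FCS. It was at 1.85 to 3.81 CPM in the other 9 libraries, so that the genotypes differed 3.48-fold at 10 days (adjusted p = 0.000138) and overlapped at 12 weeks (0.32, SE 0.255, adjusted p = 0.349). Fzd2 was 2.12-fold higher in Ctsd-/- cells at 12 weeks (adjusted p = 0.000167), or 0.99 on the log2 scale without Ctsd-/- replicate 1, whereas at 10 days it was lower by 0.88 (SE 0.149) on the log2 scale, short of the size asked for a call. Fzd1, Fzd5, Fzd6, Fzd9, Lrp5, Lrp6 and Ryk were called in no comparison of cells. Lrp5 passed the adjusted p at 10 days with a difference of 0.91 (SE 0.224, adjusted p = 0.00556). It was not the only receptor that passed without the size for a call. By the adjusted p alone 8 receptors were lower and 1 higher at 10 days, beside 3803 and 3564 of all 15178 genes. At 12 weeks 6 were lower and 1 higher, beside 2894 and 3109. Fzd10 was at or near the floor in all cells, at most 0.133 CPM.

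**Figure D3:**
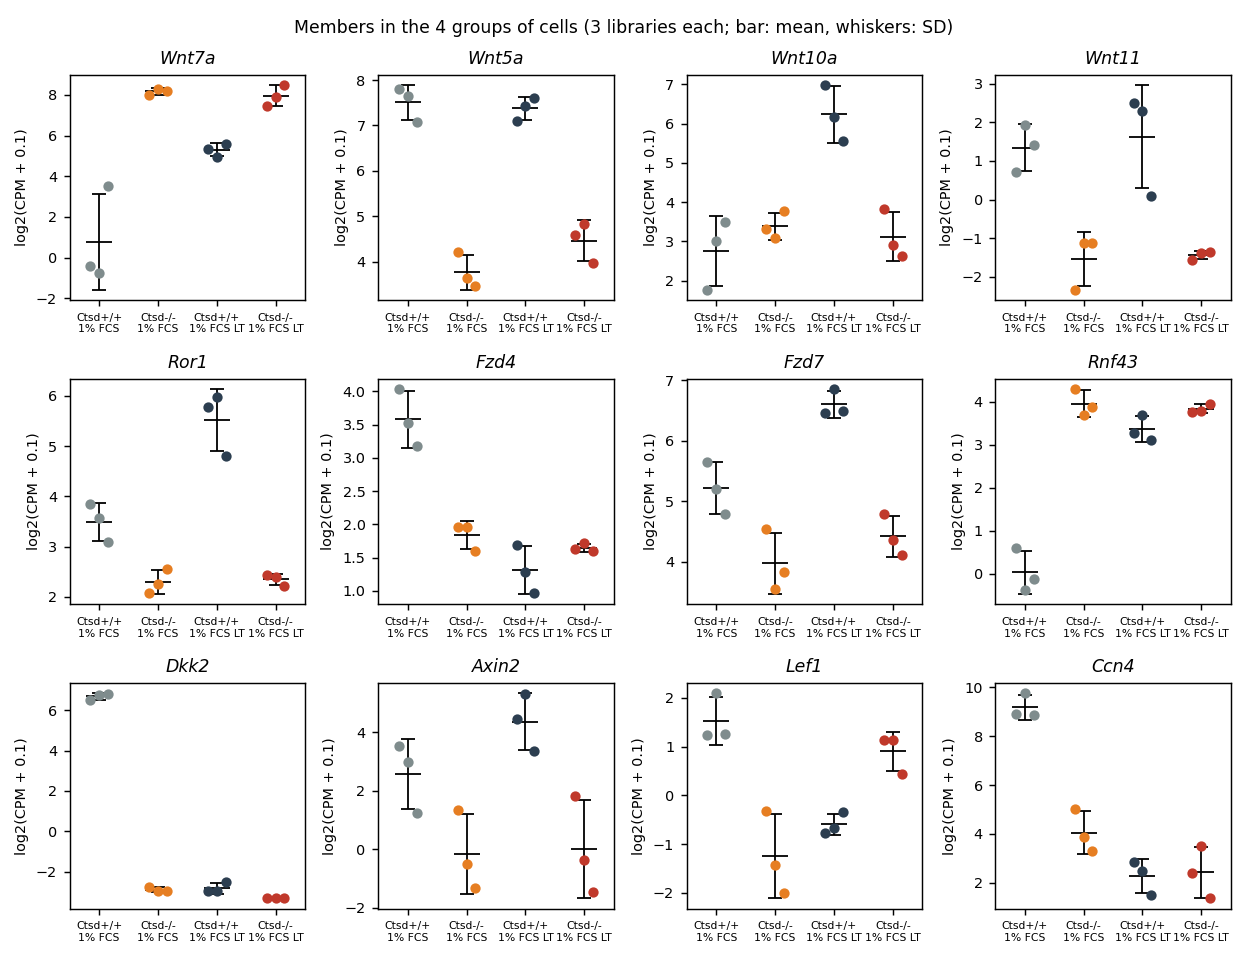
Level of 12 members in the 4 groups of cells, as log2(CPM + 0.1), with 1 point per library, the mean as a bar and SD as whiskers (n = 3). Dkk2 and Ccn4 are high in Ctsd+/+ cells in 1% FCS alone, Rnf43 is low there alone, and Wnt5a and Ror1 are lower in both groups of Ctsd-/- cells than in both groups of Ctsd+/+ cells.

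At the level of receptor turnover, Rnf43, a transmembrane ubiquitin ligase that removes Frizzled receptors from the surface, set Ctsd+/+ cells in 1% FCS apart. It was at 1.41, 0.672 and 0.811 CPM in these 3 libraries, and at 19.6, 12.8 and 14.6 CPM in Ctsd-/- cells in 1% FCS. Later it was at 9.57, 12.9 and 8.52 CPM in Ctsd+/+ and 13.5, 13.8 and 15.4 CPM in Ctsd-/- cells. The difference between genotypes was 16.2-fold at 10 days (edgeR adjusted p = 9.93e-07) and was not called at 12 weeks (0.46, SE 0.247, adjusted p = 0.161). Its homolog Znrf3 was called in no comparison and stayed at 30.3 to 67.2 CPM over all 12 libraries. Lgr4, an R-spondin receptor that shields Frizzleds from these ligases, was at 82, 49.8 and 25.4 CPM in Ctsd+/+ and 21.2, 15.7 and 15.1 CPM in Ctsd-/- cells in 1% FCS, a 3.02-fold difference with groups apart (adjusted p = 0.0016). It was not called at 12 weeks (-0.58, SE 0.316). The R-spondin Rspo3 was at 0.54, 0.611 and 0.209 CPM against 0.0973, 0.0274 and 0 CPM in 1% FCS (adjusted p = 0.00863), and at 0.135, 0.266 and 0.203 CPM against 0.144, 0 and 0.0484 CPM in 1% FCS LT, where it was not called. Its log2 fold change at 10 days was -3.25, and -4.69 without Ctsd-/- replicate 1. Rspo1 and Lgr5 were at or near the floor in cells.

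The secreted antagonist Dkk2, which blocks the Lrp5 and Lrp6 co-receptors, showed the widest difference. It was at 90.7, 109 and 110 CPM in Ctsd+/+ cells in 1% FCS, and at most 0.0761 CPM in any of the other 9 libraries, all of which were at the floor. Ctsd-/- cells in 1% FCS were thus at least 1160-fold lower (edgeR adjusted p = 3.39e-09). The call of Dkk2 between the genotypes in 1% FCS LT compares 2 groups at the floor, and no fold is given. Dkk3, a divergent member of the same family, was at 0.36, 0.58 and 0.314 CPM in Ctsd+/+ cells in 1% FCS and 0.054, 0.133 and 0.152 CPM in 1% FCS LT, with no count in any Ctsd-/- library. Against the floor this was at least 4.71-fold lower at 10 days and at least 1.46-fold lower at 12 weeks, the latter call being lost in the samples of a single LR code (-4.85, adjusted p = 0.0569). Sfrp1, a soluble decoy of Wnts, was the antagonist present in all 4 groups, at 11.1 to 61.1 CPM, and was called in no comparison of cells. Sfrp2, Sfrp4 and Wif1 were too low to be tested, at most 0.81 CPM.

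Within the intracellular core, Ctnnb1, Apc and Axin1 differed little between the genotypes. Ctnnb1, which encodes beta-catenin, was at 692 to 1350 CPM in the 12 libraries, with log2 fold changes of 0.14 (SE 0.162) at 10 days and -0.16 (SE 0.162) at 12 weeks. Apc differed by 0.12 (SE 0.109) and 0.15 (SE 0.109), and Axin1 by -0.11 (SE 0.113) and 0.01 (SE 0.113). None of these 6 differences was called. Axin2, the feedback inhibitor often read as a reporter of canonical signaling, was at 11.4, 7.79 and 2.25 CPM in Ctsd+/+ and 2.43, 0.602 and 0.296 CPM in Ctsd-/- cells in 1% FCS, ranges that overlap. Later it was at 21.6, 38.9 and 10.1 CPM against 3.45, 0.669 and 0.266 CPM, with no overlap. The difference was 6.3-fold at 10 days (edgeR adjusted p = 0.038) and 16-fold at 12 weeks (adjusted p = 0.00707). At 10 days the call was lost with limma-voom (adjusted p = 0.0643), without Ctsd+/+ replicate 1 or 2, and without Ctsd-/- replicate 2 or 3 (-2.59 to -2.14, adjusted p = 0.0704 to 0.119). Without Ctsd-/- replicate 1 the log2 fold change went from -2.65 to -3.96 at 10 days and from -4 to -5.65 at 12 weeks.

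The nuclear factors and targets Lef1, Ccn4 and Daam2 were lower in Ctsd-/- cells at 10 days but not at 12 weeks. Lef1, a beta-catenin partner and itself a target, was at 2.25, 4.18 and 2.28 CPM in Ctsd+/+ and 0.706, 0.274 and 0.148 CPM in Ctsd-/- cells in 1% FCS. In 1% FCS LT the order was turned, with 0.486, 0.533 and 0.685 CPM in Ctsd+/+ and 2.11, 2.09 and 1.26 CPM in Ctsd-/- cells. It was thus 7.53-fold lower in Ctsd-/- cells at 10 days (edgeR adjusted p = 0.00047) and 3.18-fold higher at 12 weeks (adjusted p = 0.0142), the latter lost without replicate 1 of the Ctsd+/+ cells in 1% FCS LT (1.57, adjusted p = 0.0508). Ccn4, the matricellular target also called WISP1, was at 485, 868 and 464 CPM in Ctsd+/+ cells in 1% FCS and at 32, 14.5 and 9.67 CPM in Ctsd-/- cells, 32.3-fold lower (adjusted p = 4.9e-05). Without Ctsd-/- replicate 1 in 1% FCS the log2 fold changes at 10 days went from -2.91 to -3.75 for Lef1 and from -5.01 to -5.64 for Ccn4. That replicate carries another LR code than replicates 2 and 3 of its group. At 12 weeks Ccn4 was at 7.05, 5.46 and 2.74 CPM against 5.15, 11.1 and 2.49 CPM, which overlap. Daam2, a formin that links Dishevelled to the cytoskeleton, was at 34, 3.66 and 2.72 CPM against 0.73, 0.164 and 0.0887 CPM at 10 days (39.5-fold lower, log2 fold change -5.3, adjusted p = 0.00525). This size rests on single libraries, being -3.23 without the Ctsd+/+ library at 34 CPM and -6.68 without Ctsd-/- replicate 1. At 12 weeks it was at 0.027, 0.0799 and 0.101 CPM in Ctsd+/+ and 2.92, 3.24 and 0.0968 CPM in Ctsd-/- cells, ranges that overlap although the test called it higher (adjusted p = 0.0243). Of all reads over Daam2 in cells, 25.9% lay on the other strand, and with counts taken regardless of strand the 12-week call was lost (1.48, adjusted p = 0.15). It was also lost with limma-voom and without any 1 of the Ctsd+/+ replicates or of Ctsd-/- replicates 1 and 2 (4.37 to 5.2, adjusted p = 0.056 to 0.0793). Tcf7l1, a repressive Tcf factor, was 2.21-fold lower in Ctsd-/- cells at 10 days (21.9 to 25.3 against 9.84 to 12.2 CPM, adjusted p = 0.000824). Tcf7, Tcf7l2 and Nkd2 were called in no comparison of cells, and Nkd1 was at or near the floor.

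Whether these profiles moved with the length of starvation was asked within each genotype. In Ctsd-/- cells 1 of 40 members was called over time, Lef1, which was 4.72-fold higher in 1% FCS LT than in 1% FCS with groups apart (log2 fold change 2.24, SE 0.485, edgeR adjusted p = 0.0372). Over all genes 1.11% were called higher and 0.369% lower in this comparison. No member was called lower by edgeR, DESeq2 or limma-voom, while 9 members of both directions had an unadjusted edgeR p below 0.05. The share of all genes below that p was not computed. By the adjusted p alone 2 members were higher, beside 238 higher and 123 lower of all 15178 genes. They were Lef1 and a receptor (edgeR adjusted p = 0.0289) short of the size for a call. Fzd1, not called, was at 23.7 to 27.1 CPM in Ctsd-/- cells in 1% FCS and 43.4 to 47.2 CPM in 1% FCS LT. Lef1 was not called when the fit held only these 2 groups (adjusted p = 0.0548) nor without replicate 2 or 3 in 1% FCS or replicate 1 or 2 in 1% FCS LT (1.87 to 2.13, adjusted p = 0.107 to 0.159), and it was 3.08 without replicate 1 in 1% FCS. In the libraries of a single LR code 4 members were higher. In Ctsd+/+ cells 7 members were higher and 10 lower in 1% FCS LT than in 1% FCS, where 11.0% and 12.3% of all genes were called, and in the libraries of a single LR code 11 were higher and 9 lower. For the libraries of a single LR code no share of all genes was computed in either genotype. The comparisons over time share their libraries with the comparisons between genotypes above.

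**Figure D4:**
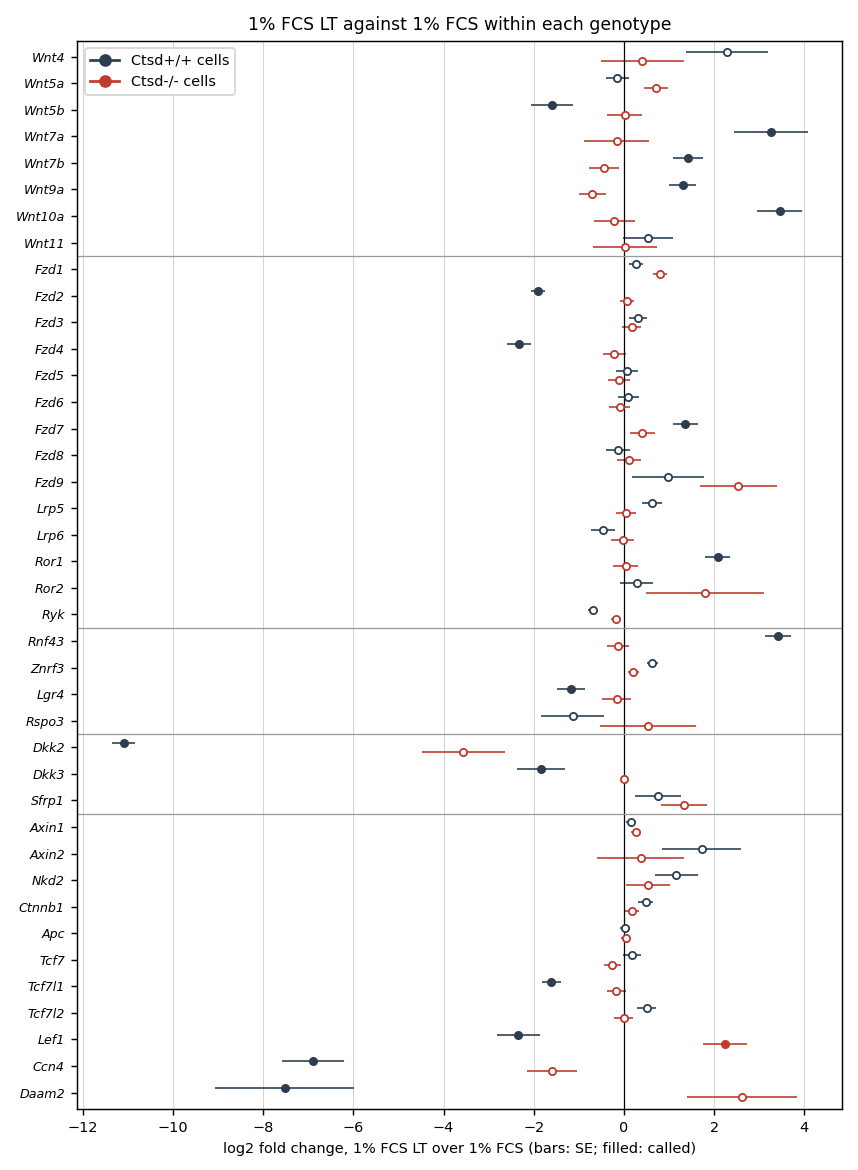
Log2 fold change of 1% FCS LT over 1% FCS (x axis, bars are SE) within Ctsd+/+ and within Ctsd-/- cells for the 40 members tested (y axis, by role), with filled points for members called. Ctsd+/+ cells carry 17 filled points on both sides of 0, and Ctsd-/- cells carry 1, that of Lef1. Both points of Dkk2 and the Ctsd-/- points of Dkk3 and Ror2 are fitted on groups at the floor, so their distance from 0 is not a measured size.

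In Ctsd+/+ cells 4 of 8 ligands tested were higher over time and 1 was lower, beside 11.0% and 12.3% of all genes. Wnt10a was 10.9-fold higher in 1% FCS LT (edgeR adjusted p = 0.000172), Wnt7a 9.58-fold (adjusted p = 0.00629, log2 fold change 3.26, or 6.12 without replicate 3 in 1% FCS), Wnt7b 2.68-fold (adjusted p = 0.00443) and Wnt9a 2.46-fold (adjusted p = 0.00393), or 0.96 on the log2 scale without replicate 1 in 1% FCS. Wnt5b, at low level, was 3.01-fold lower (adjusted p = 0.014), a call lost without replicate 2 or 3 in 1% FCS LT (-1.4 and -1.37), and Wnt5a did not pass (-0.15, SE 0.258). Rnf43 was 10.7-fold higher (adjusted p = 3.02e-06), Ror1 4.24-fold (adjusted p = 0.000103) and Fzd7 2.57-fold (adjusted p = 0.00199). Fzd4 was 5.01-fold lower (adjusted p = 2.72e-05) and Fzd2 3.73-fold lower (adjusted p = 2.36e-06), the latter from 75.8 to 81.2 CPM down to 18.6 to 26 CPM.

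Of 3 antagonists tested 2 were lower over time in Ctsd+/+ cells, and of 11 core, nuclear and feedback genes 4 were lower, with 0 higher in either role, beside 12.3% of all genes lower and 11.0% higher. Those 2 antagonists, Dkk2 and Dkk3, passed the filter on low counts only through Ctsd+/+ cells in 1% FCS, so they could be called only lower. Dkk2 was at least 1270-fold lower in 1% FCS LT and Dkk3 3.59-fold lower (edgeR adjusted p = 0.0218), the latter not called by DESeq2 or without replicate 2 in 1% FCS or replicate 1 or 2 in 1% FCS LT (-1.97 to -1.52). Ccn4 was 119-fold lower (adjusted p = 1.06e-05), Lef1 5.08-fold (adjusted p = 0.0017), Tcf7l1 3.05-fold (adjusted p = 8.9e-05) and Lgr4 2.25-fold with overlapping groups (adjusted p = 0.00982), a call lost without replicate 1 in 1% FCS (-0.7), in the samples of a single LR code (-0.67) and with the LR code as covariate (-0.75). Daam2 was lower with groups apart (log2 fold change -7.52, SE 1.54, adjusted p = 0.00189), or -5.45 without replicate 1 in 1% FCS. The fibroblast marker sum of 1180 to 3310 CPM in 1% FCS and 3.05 to 8.44 CPM in 1% FCS LT moved with the values of these members, and its part in them was not tested.

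The difference between the genotypes in their change over time was tested as an interaction. It was called for 12 members, 6 with a more positive and 6 with a more negative change in Ctsd-/- cells, where 11.0% and 8.12% of all genes were called. All 6 of the former were lower over time in Ctsd+/+ cells: Fzd2 (interaction log2 fold change 1.97, SE 0.212), Fzd4 (2.12, SE 0.359), Tcf7l1 (1.44, SE 0.295), Lef1 (4.58, SE 0.677), Ccn4 (5.31, SE 0.813) and Daam2 (10.13, SE 1.97). All 6 of the latter were higher over time in Ctsd+/+ cells: Wnt7a (-3.42, SE 1.07), Wnt7b (-1.87, SE 0.467), Wnt9a (-2.01, SE 0.422), Wnt10a, Ror1 (-2.04, SE 0.393) and Rnf43 (-3.56, SE 0.374). The interaction of Wnt7a (edgeR adjusted p = 0.0312) was lost without Ctsd-/- replicate 2 or 3 in 1% FCS, and in 1% FCS LT without Ctsd+/+ replicate 1 or 3 or Ctsd-/- replicate 1 or 2 (-3.4 to -3.2, adjusted p = 0.0532 to 0.072). It was also lost in the samples of a single LR code (-3.15, adjusted p = 0.0731), and was -6.29 without Ctsd+/+ replicate 3 in 1% FCS. Without Ctsd-/- replicate 1 in 1% FCS the interaction was 5.42 for Lef1, 5.95 for Ccn4 and 11.51 for Daam2. That of Ccn4 was 4.61 without Ctsd-/- replicate 2 in 1% FCS LT, and that of Daam2 was 8.07 without Ctsd+/+ replicate 1 in 1% FCS.

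Levels per kilobase of exon let the members of a role be ranked. Ctnnb1 led the core in all 6 groups, at 173 ± 37.9, 190 ± 18.2, 240 ± 26.3 and 215 ± 15.5 CPM per kilobase (SD, n = 3) in Ctsd+/+ and Ctsd-/- cells in 1% FCS and then in Ctsd+/+ and Ctsd-/- cells in 1% FCS LT. Ccn4 was next in Ctsd+/+ cells in 1% FCS (109 ± 40.9), a place held by Axin1 in the other 3 groups of cells (26.4 ± 3.73 to 31.8 ± 1.96). Wnt7b was the leading ligand in cells, at 27.8 ± 14.8, 137 ± 17.7, 74.6 ± 9.52 and 101 ± 3.35 CPM per kilobase in the same order of groups. The next ligand was Wnt5a in Ctsd+/+ cells in 1% FCS (23.9 ± 5.9, within the spread of Wnt7b), Wnt7a in both groups of Ctsd-/- cells (91.2 ± 9.62 and 81.7 ± 29.5, the second within the spread of Wnt7b) and Wnt10a in Ctsd+/+ cells in 1% FCS LT (33.2 ± 16.7). The spread of Wnt10a overlapped that of Wnt5a there (21.4 ± 3.73). Among receptors Lrp5 led in 3 groups of cells (39.3 ± 1.09 to 48.9 ± 1.62), while Ryk (32.7 ± 4.22), Fzd6 (26.7 ± 9.84) and Lrp5 (25.3 ± 10.5) did not differ beyond their spread in Ctsd+/+ cells in 1% FCS. Dkk2 (27.8 ± 2.89) stood above Sfrp1 (7.62 ± 5.59) among antagonists there, and Sfrp1 led in the other groups. In control and Ctsd-/- tumors the leading members of their roles were Wnt5b (12.7 ± 4.25 and 10.2 ± 2.6, SD, n = 4), Ryk (11.3 ± 1.39 and 11.3 ± 1.15), Lgr4 (9.21 ± 2.73 and 10 ± 1.63), Sfrp1 (16.8 ± 8.29 and 8.86 ± 3.64) and Ctnnb1 (58.1 ± 5.51 and 62.8 ± 15.7). In control and Ctsd-/- tumors the spread of Sfrp1 overlapped that of Wif1 (7.69 ± 6.91 and 7.36 ± 2.87) and Dkk3 (7.26 ± 2.32 and 7 ± 2.69). Likewise the spread of Lgr4 overlapped that of Rnf43 (7.22 ± 1.87 and 7.05 ± 1.81), and in control tumors that of Znrf3 (4.65 ± 2.55). Members at the floor in every library numbered 5 in Ctsd+/+ and 12 in Ctsd-/- cells in 1% FCS, and 7 and 13 in 1% FCS LT. The 12 were Wnt2, Wnt10b, Fzd10, Ror2, Lgr5, Rspo1, Dkk2, Dkk3, Sfrp2, Sfrp4, Wif1 and Nkd1, and Wnt6 joined them in the 13. Wnt7a was at the floor in all Ctsd-/- tumors.

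In tumors the threshold of the study was used, an unadjusted p below 0.1, here with the edgeR test where the study used limma. By it 5 of 47 members were higher and 3 lower in Ctsd-/- than in control tumors, where 8.44% and 8.27% of all 18617 genes tested were called, and the median log2 fold change of the members was 0.08 beside 0. No member passed an adjusted p of 0.05 by edgeR, DESeq2 or limma-voom, and 4, 5 and 1 members had an unadjusted p below 0.05 by these tools. At an unadjusted p below 0.1 DESeq2 called 8 members and limma-voom 6. Over all 18617 genes 1665, 2128 and 1377 had an unadjusted p below 0.05 by edgeR, DESeq2 and limma-voom. Below 0.1 there were 3433 by DESeq2 and 2850 by limma-voom. The groups overlapped for all 8 members called. All 4 control tumors carry another LR code than all 4 Ctsd-/- tumors, so that genotype and code cannot be told apart. Adipocyte markers moved with the genotype, with a sum of 541 to 5710 CPM over 8 genes in control and 3440 to 24000 CPM in Ctsd-/- tumors and all 8 called higher. Endothelial markers were at 70.8 to 150 and 96 to 379 CPM with 6 of 7 called higher, fibroblast markers at 873 to 3480 and 1710 to 2920 CPM with 1 of 9, and basal markers at 510 to 1240 and 541 to 2080 CPM with 2 of 7. No marker of these lists was at the floor in either group of tumors, and their part in the Wnt values was not tested.

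**Figure D5:**
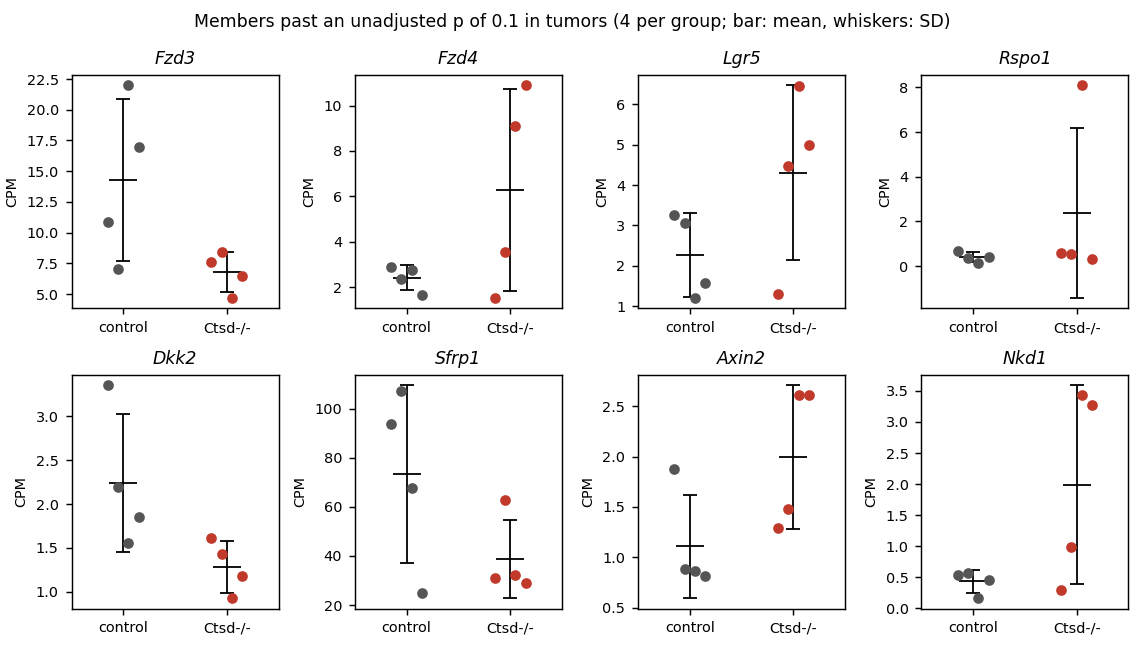
CPM of the 8 members past an unadjusted p of 0.1 in 4 control and 4 Ctsd-/- tumors, with 1 point per tumor, the mean as a bar and SD as whiskers. The groups overlap for every member, and the mean of Rspo1 in Ctsd-/- tumors is set by 1 tumor at 8.1 CPM.

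The 5 members higher in Ctsd-/- tumors were Nkd1, Axin2, Lgr5, Fzd4 and Rspo1. Nkd1, a feedback antagonist of Dishevelled, was at 0.543, 0.571, 0.166 and 0.457 CPM in control and 0.289, 0.984, 3.43 and 3.27 CPM in Ctsd-/- tumors (4.57-fold, log2 fold change 2.19, SE 0.738, edgeR adjusted p = 0.513). Axin2 was at 1.88, 0.88, 0.862 and 0.812 CPM against 1.29, 1.48, 2.61 and 2.61 CPM (1.79-fold, adjusted p = 0.578). Lgr5, the R-spondin receptor that marks stem cells of several epithelia, was at 3.26, 3.06, 1.21 and 1.57 CPM against 1.31, 4.47, 6.46 and 4.98 CPM (1.89-fold, adjusted p = 0.597). In each of these 3 genes Ctsd-/- tumors 3 and 4 were above all control tumors, and tumor 1 lay within their range. The same Ctsd-/- tumors 3 and 4 were the highest of all 8 tumors in 7 of 8 adipocyte, 7 of 7 endothelial and 4 of 7 basal markers. They were so in 3 of 9 fibroblast, 1 of 5 lymphocyte, 0 of 10 luminal and 0 of 7 macrophage markers. The share of all genes with these tumors highest was not computed. Chosen after their values were seen, Plin1 was at 48.2 and 69.5 CPM in these tumors and at most 11.4 CPM in the other 6, and Cdh5 at 63.8 and 53.1 CPM against at most 23 CPM. The part of these markers in the Wnt values was not tested. Of the other targets, Lef1 was at 2.23, 0.232, 1.76 and 1.22 CPM in control and 0.258, 1.34, 0.569 and 0.332 CPM in Ctsd-/- tumors, and Ccn4 at 36.6, 24, 14.3 and 9.92 CPM against 8.63, 19.8, 15.6 and 7.45 CPM, neither of them called. Fzd4 was at 2.89, 2.38, 2.75 and 1.65 CPM in control and 1.53, 3.57, 9.12 and 10.9 CPM in Ctsd-/- tumors (2.59-fold, adjusted p = 0.544). Rspo1 was at 0.678, 0.355, 0.149 and 0.406 CPM against 0.577, 0.553, 8.1 and 0.332 CPM (5.99-fold, adjusted p = 0.544), and without the third Ctsd-/- tumor its log2 fold change went from 2.58 to 0.29. The number of members called went from 8 to 3 without either of Ctsd-/- tumors 3 and 4, and rose to 12 without either of tumors 1 and 2. Nkd1 and Fzd3 stayed called without any single tumor, whereas Fzd4 was not called without Ctsd-/- tumor 4 (0.97). With limma-voom the log2 fold changes of Fzd4 (0.99), Lgr5 (0.79) and Rspo1 (1.47) were not called, and DESeq2 gave no p for Rspo1. Lgr5 was lost without control tumor 3 or 4 or Ctsd-/- tumor 2, 3 or 4 (0.66 to 0.9). Axin2 was lost without control tumor 2, 3 or 4 or Ctsd-/- tumor 3 or 4 (0.69 to 0.74).

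Lower in Ctsd-/- tumors were Fzd3 and a pair of antagonists. Fzd3 was at 10.9, 7.07, 22 and 17 CPM in control and 7.64, 8.38, 4.69 and 6.44 CPM in Ctsd-/- tumors (2.1-fold, log2 fold change -1.07, SE 0.358, edgeR adjusted p = 0.51). Sfrp1 was at 93.6, 107, 67.7 and 25 CPM against 30.9, 62.6, 32.4 and 29.2 CPM (1.89-fold, adjusted p = 0.561). Dkk2 was at 3.35, 2.19, 1.56 and 1.85 CPM against 1.61, 1.43, 0.929 and 1.18 CPM (1.74-fold, adjusted p = 0.561). In Fzd3 and Dkk2 the tumors of 1 group still crossed those of the other, by a single control tumor each. Sfrp1 was not called without control tumor 1 or 2 or Ctsd-/- tumor 1, 3 or 4 (-0.84 to -0.68), nor Dkk2 without control tumor 1 or Ctsd-/- tumor 3 or 4 (-0.76 to -0.54). All 6 antagonists among the members had a fitted log2 fold change below 0, 2 of them called, with a median of -0.68. Over all 18617 genes tested, 9322 were above 0 and 8.27% were called lower. Of 7 other extracellular antagonists tested, 5 were above 0, with a median of 0.12, 2 called higher and 1 called lower. Of the 8 members called in tumors, Fzd3, Fzd4, Dkk2 and Axin2 were also called between the genotypes in cells in 1% FCS. Fzd3 and Dkk2 were lower in Ctsd-/- samples in both, and Fzd4 and Axin2 were higher in tumors and lower in cells. In that comparison of cells 20 of the 40 members tested were called. The share of all genes called in both tumors and cells was not computed.

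Set side by side without a test, since tumors and cells were counted on different strand columns, members fell into those of tumors and those of cells. Wnt5b was at 18.3 to 46.5 CPM in tumors and 0.101 to 0.901 CPM in cells. Wif1, Sfrp2, Sfrp4 and Dkk3 reached 34.7, 17.2, 26.4 and 34.8 CPM in tumors, and none of them passed 0.81 CPM in cells. Tcf7l2 was at 43 to 205 CPM in tumors and 16.9 to 38.7 CPM in cells. The reverse held for Wnt7a, which was at most 0.17 CPM in any tumor, and for Wnt7b, at 4.27 to 8.41 CPM in tumors and 55.1 to 746 CPM in cells. All 50 members together made up 776 to 1490 CPM in tumors and 2780 to 3950 CPM in cells. Tumor counts carry no strand, and Ctnnb1, Fzd5, Fzd6, Sfrp2, Lef1, Axin2, Tcf7l1, Wnt5a, Wnt7b and Wnt11 share exon bases with genes on the opposite strand, so that reads of these pairs cannot be told apart there. In the cells Lef1 had 433 reads regardless of strand beside 629 in the opposite-strand column. Tcf7l1 had 4661 beside 5756 and Fzd5 10859 beside 12471, while Fzd6 had 50456 beside 50446. Tumor values of such members can thus be too low.

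The list of other pathway genes held 91. Of 67 tested in cells, 13 (19.4%) were lower and 6 (8.96%) higher in Ctsd-/- cells in 1% FCS, beside 14.6% and 10.3% of all genes. In 1% FCS LT 11 (16.4%) were lower and 8 (11.9%) higher, beside 10.1% and 9.24%, and the medians were 0.01 and 0.13. Rspo2, Cthrc1 and Prox1 were among the 13, and Prox1, Gpc3 and Dkkl1 among the 11. Each of these genes was at most 0.243 CPM in any library of Ctsd-/- cells. They passed the filter on low counts only through Ctsd+/+ libraries, so in these comparisons they could be called only lower. Over time 14 (20.9%) were lower and 9 (13.4%) higher in Ctsd+/+ cells, beside 12.3% and 11.0%, and 1 each in Ctsd-/- cells. Cthrc1 and Rspo2, among the 14, passed the filter only through Ctsd+/+ cells in 1% FCS and could be called only lower. Gpc3 and Dkkl1, among the 9, passed only through Ctsd+/+ cells in 1% FCS LT and could be called only higher. Porcn, the acyltransferase that attaches the lipid to Wnts, was lower in Ctsd-/- cells at both times, 4.11-fold at 10 days (edgeR adjusted p = 0.0013) and 6.38-fold at 12 weeks (adjusted p = 0.00029). Wls, the carrier that brings Wnts to the surface, was at 397 to 708 CPM in Ctsd+/+ and 183 to 272 CPM in Ctsd-/- cells in 1% FCS (2.52-fold, adjusted p = 0.000216), and fell 5.97-fold in Ctsd+/+ cells over time (adjusted p = 2.49e-06). The glypican Gpc3 was at 1.47 to 3.04 CPM in Ctsd+/+ cells in 1% FCS LT and at the floor in Ctsd-/- cells, at least 29.1-fold lower.

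Outside the cell, Apcdd1, a membrane-bound inhibitor and canonical target, was 6.77-fold higher in Ctsd-/- than in Ctsd+/+ cells in 1% FCS LT (31.3 to 53 against 4.98 to 7.92 CPM, edgeR adjusted p = 2.31e-05). It was also higher in Ctsd-/- tumors, at 4.47, 3.58, 8.64 and 16.6 CPM against 2.47, 3.23, 1.16 and 0.964 CPM, with groups apart (4.23-fold, adjusted p = 0.416). Cthrc1, a secreted protein with a collagen triple helix repeat, was at 15.2, 5.56 and 1.15 CPM in Ctsd+/+ cells in 1% FCS and at or near 0 in the other 9 libraries, at least 82.2-fold lower in Ctsd-/- cells at 10 days. The R-spondin Rspo2 was at 0.66 to 1.47 CPM in Ctsd+/+ cells in 1% FCS and at 0 in all Ctsd-/- libraries, at least 12.6-fold lower at 10 days. Lgr6 was higher in Ctsd-/- cells at both times, 2.3-fold (adjusted p = 0.000897) and 4.22-fold (adjusted p = 2.98e-05). Among transducers, nuclear cofactors and the planar polarity branch, Apc2 (6.11-fold, adjusted p = 0.000138), Pygo1 (5.26-fold, adjusted p = 0.0146), Prickle3 (6.01-fold, adjusted p = 9.4e-05), Prickle2 (5.16-fold, adjusted p = 3.97e-05) and Camk2d (4.24-fold, adjusted p = 7.41e-07) were higher in Ctsd-/- cells in 1% FCS LT. At 10 days Pygo1 was 4.7-fold lower and Prickle2 2.12-fold lower in Ctsd-/- cells. In Ctsd+/+ cells over time Tle2 was 6.7-fold lower (adjusted p = 0.000604), while Dkkl1 (7.53-fold, adjusted p = 0.00925), Frat1 (4.17-fold, adjusted p = 0.0264) and Frat2 (2.01-fold, adjusted p = 0.0208) were higher. Of 10 listed targets tested, 3 were called lower and 2 higher in Ctsd-/- cells in 1% FCS, beside 14.6% and 10.3% of all genes. In 1% FCS LT 2 were called lower and 0 higher, beside 10.1% and 9.24%. Prox1, called lower at both times, passed the filter on low counts only through Ctsd+/+ libraries. Ccnd1 was at 322 to 562 CPM in Ctsd+/+ and 1400 to 2100 CPM in Ctsd-/- cells in 1% FCS. Cd44 was at 589 to 808 CPM against 936 to 1640 CPM there. Procr, a marker of mammary stem cells, was lower in Ctsd-/- cells at both times, 12.9-fold (adjusted p = 8.8e-06) and 17-fold (adjusted p = 8.54e-06). Prox1 was also lower at both times, 23-fold (adjusted p = 0.000216) and 12.6-fold (adjusted p = 0.00189). Ccn5, a relative of Ccn4, was at 302, 117 and 8.14 CPM in Ctsd+/+ and 0.754, 0.192 and 0.0591 CPM in Ctsd-/- cells in 1% FCS (adjusted p = 0.000544). In tumors 7 (9.46%) of 74 of these genes tested were higher, among them Sox17 (3.64-fold, adjusted p = 0.528), and 2 (2.7%) were lower, beside 8.44% and 8.27% of all genes.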

How the data were processed

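The authors trimmed reads with Trimmomatic, mapped them with STAR to GRCm38 and deposited raw counts per Ensembl gene. The annotation release and tool versions are not given in the sources used here. Each deposited count file holds counts regardless of strand and on either strand. The first was used for the 8 tumors and the opposite-strand column for the 12 cell libraries. Symbols and positions came from GENCODE M21, which held 45143 of 45706 identifiers. Promoters came from RefSeq (GRCm38.p6).

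Genes were filtered with filterByExpr, scaled by TMM and tested by the quasi-likelihood F-test of edgeR 4.0.16 in R 4.3.3, and p-values were adjusted by the Benjamini-Hochberg method across the 18617 genes kept in tumors or the 15178 kept in cells. SE is the log2 fold change divided by the root of F. The 12 cell libraries entered a single fit. Calls were an unadjusted p below 0.1 in tumors, and an adjusted p below 0.05 with an absolute log2 fold change above 1 in cells. Alternatives were DESeq2 1.42.0, limma-voom 3.58.1, DESeq2 size factors, no filter, a replicate block, counts regardless of strand, LR codes, an average log2 CPM above 1.3, only the groups compared, and leaving out each library. The scripts were tested on simulated data. Limits from the floor of 3 counts cover counting error only.

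Members and gene lists were chosen with earlier results of these data known. A member is given in every sample if it is among the 4 with the greatest absolute log2 fold change of those called in its role, or was called in tumors. Members that lead their role per kilobase or are at the floor in a group are named too, and up to 3 called genes per list of other pathway genes. No 2 replicates agreed within sampling noise. Whether replicates of the cells were separate cultures is not stated in the labels.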

Additional observations from a re-analysis of the deposited data

Results flagged for a closer look

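The change from 1% FCS to 1% FCS LT differed between the genotypes, by the interaction test of edgeR, for 12 members. The interaction log2 fold change, Ctsd-/- minus Ctsd+/+, was 10.13 for Daam2, 5.31 for Ccn4, 4.58 for Lef1, 2.12 for Fzd4, 1.97 for Fzd2 and 1.44 for Tcf7l1. It was -3.65 for Wnt10a, -3.56 for Rnf43, -3.42 for Wnt7a, -2.04 for Ror1, -2.01 for Wnt9a and -1.87 for Wnt7b. Of these 12 members, Lef1 alone was also called over time in Ctsd-/- cells.

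In 6 of 94 member groups searched, a single tumor was apart from the other 3 relative to the range of its group (Dixon's ratio), close to the about 1 in 20 that chance gives. The gap can be small, as for Axin1. In control tumors these were Sfrp2 at 17.2 CPM in tumor 2 with the others at 5.5 to 7.43 CPM, Axin1 at 42.8 CPM in tumor 2 with the others at 40.9 to 41.2 CPM, and Axin2 at 1.88 CPM in tumor 1 with the others at 0.812 to 0.88 CPM. In Ctsd-/- tumors they were Rspo1 at 8.1 CPM in tumor 3 with the others at 0.332 to 0.577 CPM, Sfrp1 at 62.6 CPM in tumor 2 with the others at 29.2 to 32.4 CPM, and Wif1 at 7.53 CPM in tumor 1 with the others at 19.8 to 22.1 CPM.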

How the results depend on the processing

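Of 99 counts of members called under an alternative, 86 stayed within 1.5 times the reported count. The share of all genes called was not computed with LR codes, a replicate block or a library left out. In tumors the 8 calls became 3 with a replicate block and 0 at an adjusted p under 0.05, and leaving out a tumor gave 3 to 12. In Ctsd-/- cells over time the single call became 2 with no filter on low counts, 0 at an average log2 CPM above 1.3, 4 in the samples of a single LR code, 3 with the LR code as covariate and 0 with only the groups compared, and leaving out a library gave 0 to 1. The cause was not tested. With the block all 5 higher tumor calls were lost, Nkd1 (1.76) among them. For the 76 single calls, 0 changed direction, 665 of 709 values under the other alternatives stayed past the threshold, and so did 484 of 544 without a library. The replicate numbers were not taken to pair the samples, since no pair of groups had all same-number correlations of deviations above 0.1. These ran from -0.303 to -0.00755 in tumors and from 0.1 to 0.362 between the genotypes in 1% FCS, where 3 of 3 Ctsd+/+ and 2 of 3 Ctsd-/- libraries correlated best with their own number. As a hint of shared structure, 3 of 3 libraries did so in both directions between Ctsd-/- cells in 1% FCS and in 1% FCS LT (0.0766 to 0.192) and between Ctsd+/+ cells in 1% FCS and Ctsd-/- cells in 1% FCS LT (0.068 to 0.248), and 0 of 3 between the Ctsd+/+ groups. With the replicate block the counts in cells were 20, 18, 1, 20 and 12, in the order of the report. Members near the floor, such as Dkk3, Ror2 and Rspo3, are limited by depth.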
